A study of Mus musculus with 44 samples.

Results

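The genes examined here encode 5 subunits of the nuclear receptor corepressor complex: Ncor1, Hdac3, Tbl1x, Tbl1xr1 and Gps2. They were found in the tables by symbol, without a threshold on measured values, and are 5 of the 24940 genes listed in each of 4 RNA-seq count tables from mouse bone marrow-derived macrophages (BMDMs). All 5 passed the filter on low counts in every table, and their counts in single libraries ranged from 177 for Gps2 to 3859 for Tbl1xr1.

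The 44 libraries fall into 22 groups of 2. The NCoR table holds NCoR flox/flox BMDMs, called WT, and NCoR flox/flox, LysMCre BMDMs, called NKO. Each genotype was given vehicle (Veh), KLA, PolyIC, IFNb or IL4 for 6 h, or RANKL for 12 h. The labels give every library as BMDMs, but the column names of the 4 RANKL libraries say Osteoclast where the others of that table say BMDM. Column names give the strain C57Bl6 for all libraries but those of NKO_KLA and RANKL, and those of NKO_KLA alone say polyA. KLA (Kdo2 lipid A) activates TLR4, poly I:C activates TLR3, IFNb is interferon beta, IL4 a cytokine of wound repair and RANKL the inducer of osteoclast differentiation. The floxed allele is shared by both genotypes, and Cre is driven by the LysM promoter in myeloid cells, so deletion need not be complete. In the other 3 tables the labels give 6 h for every library. Per the study's methods, the inhibitors were added with the serum starvation, 12 h before KLA, so cells had them for longer than KLA. No group had an inhibitor without KLA. The RGFP966 table has wild-type BMDMs with vehicle, KLA, or KLA with RGFP966, an HDAC3 inhibitor. The Pgc1b table has Pgc1b flox/flox BMDMs with and without LysMCre, each with vehicle or KLA. The TBK1i table has wild-type BMDMs with DMSO vehicle, DMSO with KLA, or KLA plus TBK1i, which blocks the kinase TBK1.

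Library depth, as summed gene counts, ran from 8.32 M at the shallowest to 16.8 M. All 6 macrophage markers, including Adgre1, Csf1r and Spi1, were present in each of the 44 libraries, and lymphocyte markers were near 0. The 4 RANKL libraries stood apart. Their summed neutrophil markers (6 of 6 measured) reached 1108 CPM (counts scaled to library size) in WT and 1499 CPM in NKO, against 1.64 to 25.9 CPM in the other 20 groups, whereas their summed osteoclast markers, 149 CPM and 179 CPM, were the lowest of all groups and the osteoclast marker Calcr stayed at 3 counts or fewer in all 44 libraries. Library names carry date stamps, which differ between NKO_KLA, WT_KLA, the RANKL libraries and the remaining NCoR libraries. Genotype and stamp therefore cannot be told apart under KLA, nor KLA and stamp against vehicle in either genotype. The second RGFP966_KLA library also has another stamp than the rest of its table. Xist, the transcript of the inactive X, had 0 or 1 counts in NKO_KLA and in the 8 Pgc1b libraries, where the Y-linked Ddx3y had 208 to 1389 counts. In the other 34 libraries Xist had 5206 to 21178 counts and Ddx3y 0 or 1. Those include WT_KLA and NKO_Veh, so this pattern cannot be told apart from genotype under KLA or from KLA in NKO cells.

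In the complex, NCoR (Ncor1) is the scaffold that binds unliganded nuclear receptors and other DNA-bound repressors. It carries the deacetylase HDAC3, activates it, and so keeps histones at target genes deacetylated. TBL1 (Tbl1x) and TBLR1 (Tbl1xr1) are closely related WD40-repeat proteins that hold the complex on histones and also recruit ubiquitin machinery for the exchange of corepressors, and GPS2 is a small subunit that also limits inflammatory kinase signalling. In macrophages the complex is known for holding inflammatory and lipid genes in check, and NCoR and HDAC3 have activating roles at some genes as well.

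The paralogs Tbl1x and Tbl1xr1 moved in opposite directions with KLA, as described below, so the 250 bases before their counted transcripts' starts are shown (RefSeq, GRCm38.p6, plus strand, 5′ to 3′). Capitals mark GC boxes (GGGCGG or its reverse complement) and the PU.1 word (GAGGAAGT or its reverse complement ACTTCCTC). The first window is chrX:77510977-77511226 and the second chr3:22076402-22076651.
Tbl1x: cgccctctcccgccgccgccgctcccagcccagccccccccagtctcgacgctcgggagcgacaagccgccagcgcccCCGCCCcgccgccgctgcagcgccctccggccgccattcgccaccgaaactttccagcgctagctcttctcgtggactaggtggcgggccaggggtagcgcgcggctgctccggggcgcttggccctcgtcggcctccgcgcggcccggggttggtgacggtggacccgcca
Tbl1xr1: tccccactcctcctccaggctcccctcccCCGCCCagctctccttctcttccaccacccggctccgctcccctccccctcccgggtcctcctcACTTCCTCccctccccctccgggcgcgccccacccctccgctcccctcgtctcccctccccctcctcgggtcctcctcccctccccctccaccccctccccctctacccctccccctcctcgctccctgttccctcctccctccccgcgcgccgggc
Each window holds 1 GC box, which 32.7% of the 32851 RefSeq promoter windows of that length hold, and both are GC rich, at 77.2% for Tbl1x and 76% for Tbl1xr1 against a median of 52.4%. The Tbl1xr1 window has 15 CG dinucleotides and the Tbl1x window 36. The PU.1 word, found in 2.44% of windows, occurs once in the Tbl1xr1 window and not in that of Tbl1x. The NF-kB pattern (GGG, any 5 bases, CC), found in 45.8% of windows, occurs 2 times in the Tbl1xr1 window and not in that of Tbl1x. Neither window holds the AP-1 word TGANTCA (6.75% of windows), the interferon-stimulated response element (GAAA, any 2 bases, GAAA; 2.98%) or the E-box CAGNTG (44.8%). Both strands were searched, and no match overlapped one of another motif. In 1 annotated transcript of each paralog, no 50-base word was shared, and the longest identical run was 20 bases. Reads from these sequences can be told apart. The search covered 4160 words of Tbl1xr1, whose counted transcript has 8109 bases, so that transcript was not compared in full. It covered 5185 words of Tbl1x, whose counted transcript has 2284 bases, so the compared sequence was longer than the counted one. Windows of 4 of the 5 members were matched by symbol, and Hdac3 was left out of the matching.

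**Figure D1:**
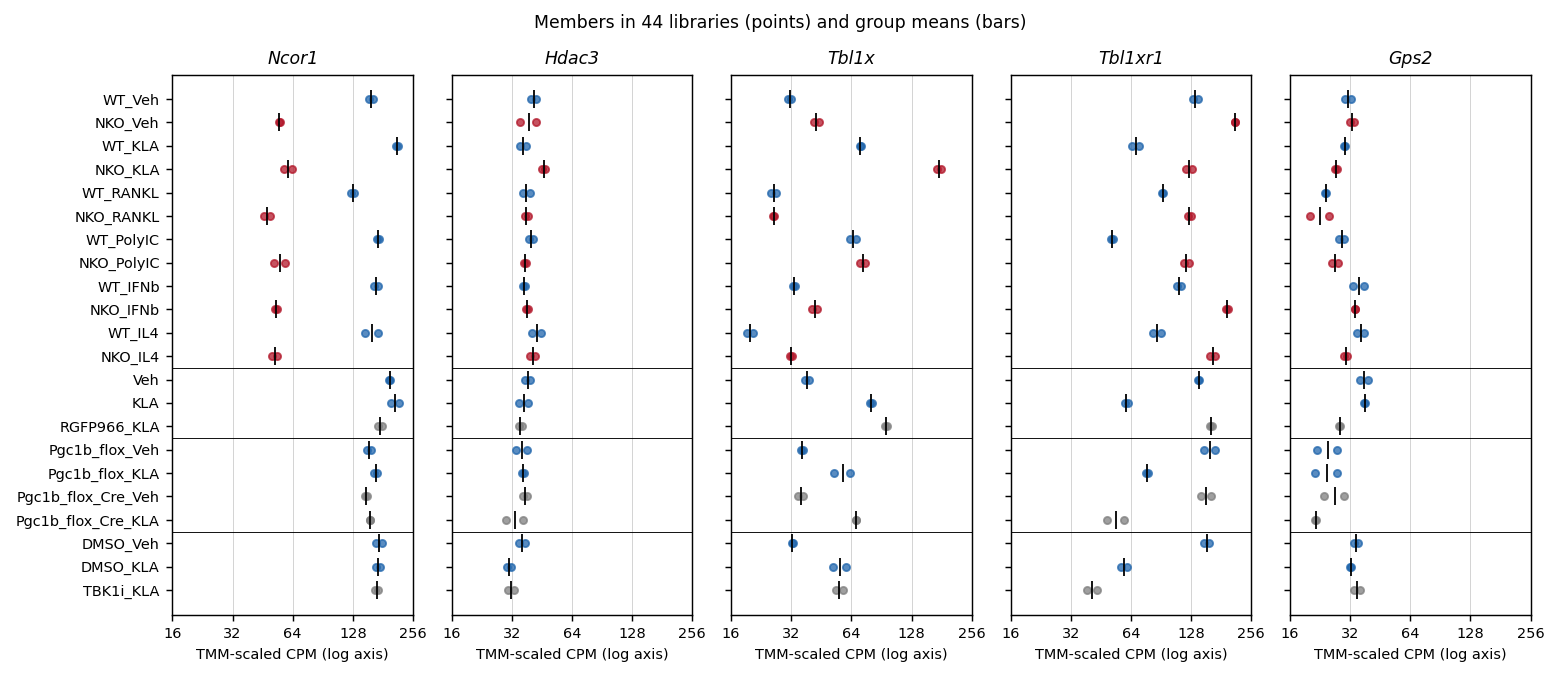
Levels of the 5 members in each of the 44 libraries (points, with the group mean as a bar) as TMM-scaled CPM on a log axis, with NKO in red, cells with an inhibitor or Pgc1b deletion in grey and the other groups in blue. Ncor1 separates by genotype, Tbl1x is highest in NKO_KLA at 176 CPM, Tbl1xr1 spans 40.9 to 212 CPM, and Hdac3 and Gps2 spread least.

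Per unit of transcript length the 5 members lay close together in resting WT cells. Mean TPM (transcript abundance scaled by length and library) in WT_Veh was 69.2 ± 3.4 for Gps2, 62.4 ± 2.1 for Hdac3, 54.2 ± 1.6 for Ncor1, 50.2 ± 2.3 for Tbl1xr1 and 41.5 ± 1.2 for Tbl1x (SD, n = 2 for each). Across groups they differed widely in how much they varied. On the CPM scale with TMM factors set over all 44 libraries, the highest group mean exceeded the lowest 8.82-fold for Tbl1x, 5.19-fold for Tbl1xr1, 4.48-fold for Ncor1, 1.76-fold for Gps2 and 1.49-fold for Hdac3. On library totals, without TMM factors, the same ratios were 4.98 for Tbl1x, 6.42 for Tbl1xr1, 5.35 for Ncor1, 2.37 for Gps2 and 2.29 for Hdac3, so the order of Tbl1x, Tbl1xr1 and Ncor1 depends on the scaling. Groups next to each other in the order of levels overlapped in 20 of 21 pairs for Hdac3 and 18 of 21 for Gps2, but in only 8 of 21 for Tbl1x and 10 of 21 for Tbl1xr1. Levels between tables were set side by side on this joint scale and not tested, except where stated. In bulk RNA, fewer cells of a type and less RNA per cell cannot be told apart.

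Ncor1, the targeted gene, was lower in NKO under every treatment. Under vehicle its level was 155 and 161 CPM in the WT libraries and 54.4 and 55.5 CPM in the NKO libraries, without overlap. It fell by 1.54 on the log2 scale (SE 0.063, edgeR adjusted p = 5.79e-28), in a comparison where 20.1% of 13407 genes tested differed at an adjusted p below 0.05 and 6.21% were called, that is, also changed over 1.5-fold. With RANKL it fell by 1.41 (SE 0.0685), the least of the 6 treatments, and with KLA it fell by 1.78 (SE 0.0682), the most, which left 37.5% and 29.2% of the WT level. Reads from exons outside the deleted part are counted as well. Among groups without the Ncor1 deletion, the mean was highest in WT_KLA at 211 and 215 CPM and lowest in WT_RANKL at 126 and 130 CPM. On library totals both ends change, with a highest mean of 232 CPM of Ncor1 in Veh and a lowest of 126 CPM in RGFP966_KLA, and WT_KLA at 154 CPM lies below all vehicle groups with intact Ncor1.

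**Figure D2:**
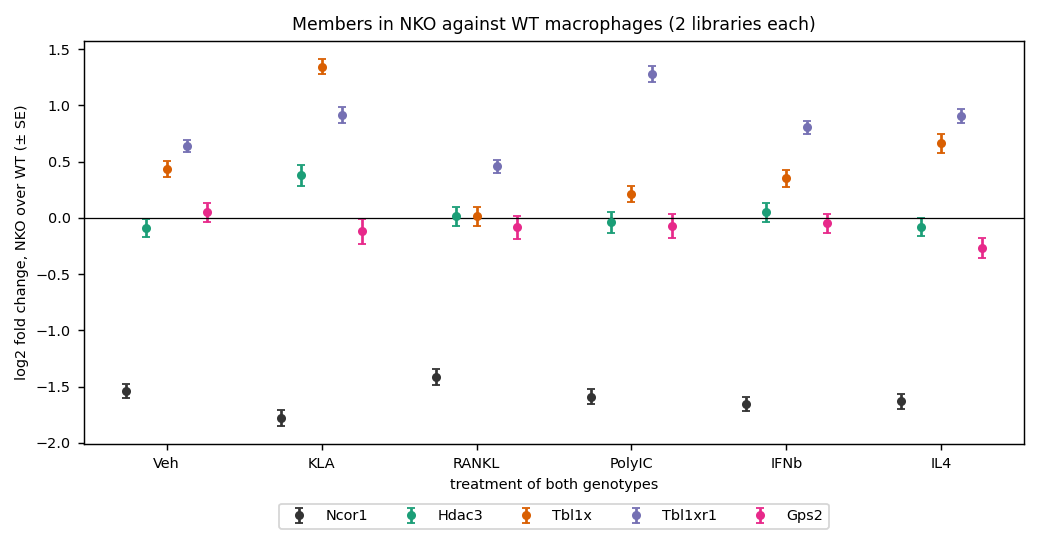
Log2 fold change of each member in NKO over WT cells under 6 treatments, with SE bars from edgeR's fit (2 libraries a group). Ncor1 lies between -1.78 and -1.41, Tbl1xr1 between 0.46 and 1.28 and Tbl1x between 0.01 and 1.34. Hdac3 and Gps2 stay near 0 apart from Hdac3 with KLA (0.38) and Gps2 with IL4 (-0.27).

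Loss of Ncor1 was accompanied by higher Tbl1xr1 in all 6 treatments. Tbl1xr1 was 130 and 139 CPM in WT_Veh and 212 CPM in both NKO_Veh libraries, a rise of 0.64 (SE 0.054, edgeR adjusted p = 9.51e-15). With poly I:C it was 52.4 and 50.9 CPM in WT and 118 and 125 CPM in NKO, the largest of the 6 rises at 1.28 (SE 0.0693, edgeR adjusted p = 7.07e-23), where 20% of genes passed an adjusted p of 0.05 and 5.93% were called. The rise was 0.80 with IFNb (SE 0.0558, 13.5% passed, 3.8% called), 0.90 with IL4 (SE 0.0579, 17.1% passed, 4.24% called) and 0.91 with KLA (SE 0.0695, 60.1% passed, 40% called). With RANKL, from 93.1 and 91.7 CPM to 128 and 123 CPM, it was 0.46 (SE 0.059, edgeR adjusted p = 3.45e-09, 34.3% passed, 13.2% called) and stayed under 1.5-fold. WT and NKO libraries did not overlap for Tbl1xr1 in any treatment. The rise was greater with poly I:C than with vehicle, by 0.64 (SE 0.089, edgeR adjusted p of the interaction 3.06e-07, where 9.88% of genes passed and 3.24% were called). It was greater by 0.27 with KLA (SE 0.0889, edgeR adjusted p = 0.00797) and by 0.26 with IL4 (SE 0.0795, edgeR adjusted p = 0.0444, 3.61% passed). The interaction with IFNb passed for 0 of 5 members, where 2.01% of genes passed, and 0.604% of genes were called with either cytokine. The KLA interaction did not pass without WT_KLA replicate 2 (edgeR adjusted p = 0.0853) or NKO_KLA replicate 1 (0.0537), and that with IL4 did not pass in many alternatives, up to an edgeR adjusted p of 0.265 for Tbl1xr1 without WT_IL4 replicate 1.

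Tbl1x also rose in NKO cells, in 5 of 6 treatments, but over 1.5-fold only with KLA and IL4. It was 30.8 and 32 CPM in WT_Veh and 41.5 and 44 CPM in NKO_Veh, a rise of 0.43 (SE 0.073, edgeR adjusted p = 4.81e-06). With KLA it was 70.5 and 71.1 CPM in WT and 172 and 179 CPM in NKO, the highest of the 22 groups, and a rise of 1.34 (SE 0.068, edgeR adjusted p = 1.16e-25). IL4 gave 19.3 and 20.6 CPM in WT, the lowest of the 22 groups, and 32.1 and 31.6 CPM in NKO, a rise of 0.66 (SE 0.085). The rise was 0.35 with IFNb (SE 0.074, edgeR adjusted p = 0.000309) and 0.21 with poly I:C (SE 0.072, edgeR adjusted p = 0.0275). The poly I:C value did not pass without WT_PolyIC replicate 2 (edgeR adjusted p = 0.268) or NKO_PolyIC replicate 2 (0.227). With RANKL, Tbl1x was 27 and 25.4 CPM in WT and 26.4 and 26.1 CPM in NKO, a difference of 0.01 (SE 0.086, edgeR adjusted p = 0.92). The genotype effect was larger with KLA than with vehicle by 0.91 (SE 0.101, edgeR adjusted p = 1.63e-11, 51.5% passed, 36.9% called) and smaller with RANKL by 0.42 (SE 0.113, edgeR adjusted p = 0.003, 28.5% passed, 14.2% called).

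The KLA values of NKO cells were set against 3 further KLA groups because of the date stamps. These groups also carry other stamps than NKO_KLA, so genotype and stamp cannot be told apart in any of these contrasts. In a joint fit of 10864 genes, Tbl1x in NKO_KLA was higher by 1.29 than WT_KLA, by 1.13 than the KLA group of the RGFP966 table, by 1.52 than Pgc1b_flox_KLA and by 1.64 than DMSO_KLA (SE 0.0785 to 0.0838). Tbl1xr1 was higher by 0.86, 1.03, 0.61 and 1.06 in the same order (SE 0.0785 to 0.0838). The value against Pgc1b_flox_KLA was 0.58 without NKO_KLA replicate 1 and then under 1.5-fold. The 4 contrasts share the NKO_KLA libraries, and in the same order 64.9%, 69.2%, 61.6% and 65.4% of genes passed and 43.3%, 46.9%, 37.3% and 41.7% were called. Tbl1x lies on the X chromosome. Pgc1b_flox_KLA is the control with the same Xist and Ddx3y pattern as NKO_KLA, and its libraries had 63.2 and 52.6 CPM of Tbl1x.

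In cells with intact Ncor1, KLA raised Tbl1x relative to other genes and lowered Tbl1xr1. In WT cells Tbl1xr1 went from 130 and 139 CPM with vehicle to 70.2 and 65.1 CPM with KLA, a fall of 1.06 (SE 0.068, edgeR adjusted p = 1.59e-21), and Tbl1x rose by 1.11 (SE 0.079, edgeR adjusted p = 1.61e-19). In this comparison 74.3% of genes passed and 57.8% were called. WT_KLA and WT_Veh carry different date stamps, so KLA and stamp cannot be told apart in it. Poly I:C gave the same pair of changes in WT cells, a fall of 1.44 for Tbl1xr1 (SE 0.067) and a rise of 1.00 for Tbl1x (SE 0.076), with 66.5% of genes passing and 47.2% called. On library totals the poly I:C values were 0.35 for Tbl1x, under 1.5-fold, and -2.08 for Tbl1xr1. IL4, in contrast, lowered both, Tbl1x by 0.64 (SE 0.085) and Tbl1xr1 by 0.62 (SE 0.0585), with 31.8% passing and 13.1% called. The Tbl1xr1 value was under 1.5-fold without WT_IL4 replicate 1 (-0.57) or WT_Veh replicate 2 (-0.58). IFNb lowered Tbl1xr1 by 0.28 (SE 0.057, edgeR adjusted p = 9.01e-05, 25.4% passed, 6.47% called), and Tbl1x differed by 0.07 (SE 0.077, edgeR adjusted p = 0.596).

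RANKL libraries, taken at 12 h and named Osteoclast, against 6 h vehicle libraries named BMDM, had lower values of 4 members in WT cells. Tbl1xr1 fell by 0.53 (SE 0.057), Gps2 by 0.36 (SE 0.091), Ncor1 by 0.28 (SE 0.059) and Tbl1x by 0.24 (SE 0.0789, edgeR adjusted p = 0.00565), none of them over 1.5-fold, where 68.9% of genes passed and 43.8% were called. The Tbl1x value did not pass without WT_Veh replicate 2 (edgeR adjusted p = 0.0526) or WT_RANKL replicate 2 (0.0637). In NKO cells Tbl1x fell by 0.66 (SE 0.08), Tbl1xr1 by 0.71 (SE 0.056) and Gps2 by 0.49 (SE 0.0958), where 69.3% passed and 45.3% were called. RANKL, time, culture name and date stamp cannot be told apart in these contrasts. The neutrophil markers given above, and fibroblast markers at 133 CPM in WT_RANKL and 176 CPM in NKO_RANKL against 48.7 CPM in WT_Veh, moved with these changes, and their part in them was not tested.

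**Figure D3:**
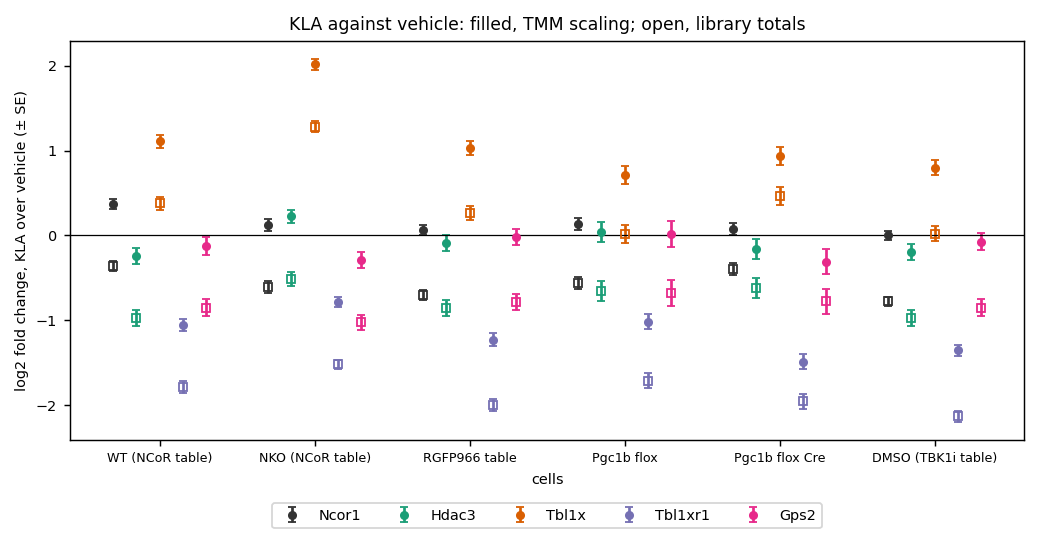
Log2 fold change of each member with KLA over vehicle in 6 kinds of cells, with SE bars, after TMM scaling (filled circles) and on library totals without it (open squares). Tbl1xr1 lies at -0.79 or lower in all 6 and on both scales, whereas Tbl1x lies above the other members on both scales but is near 0 in some cells on library totals.

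The opposite movement of the paralogs with KLA was measured in 4 further pairs of groups. Tbl1xr1 was 140 and 139 CPM in Veh and 59.7 and 62.1 CPM in KLA of the RGFP966 table, a fall of 1.23 (SE 0.071). It fell by 1.02 in Pgc1b flox cells (SE 0.089), by 1.49 in Pgc1b flox Cre cells (SE 0.091) and by 1.35 in DMSO-treated cells (SE 0.063), and no KLA library reached the level of a vehicle library of its table. Tbl1x rose by 1.03 (SE 0.079), 0.71 (SE 0.106), 0.94 (SE 0.103) and 0.80 (SE 0.084) in the same order. The second of these values was 0.57 without Pgc1b_flox_KLA replicate 1 and then under 1.5-fold. In the same order 78.9%, 65.8%, 59% and 78.8% of genes passed and 60%, 48.5%, 39.8% and 58.9% were called. Ncor1, Hdac3 and Gps2 did not pass an adjusted p of 0.05 in any of the 4 after TMM scaling. On library totals all 3 passed as lower in each of the 4, at -0.39 to -0.78 for Ncor1, -0.62 to -0.97 for Hdac3 and -0.68 to -0.85 for Gps2 (log2). NKO cells showed both changes too, with Tbl1x up by 2.02 (SE 0.063) and Tbl1xr1 down by 0.79 (SE 0.0561), where 78.6% passed and 61.2% were called. NKO_KLA and NKO_Veh also differ in date stamp and in Xist and Ddx3y pattern, which cannot be told apart from KLA here. Poly I:C gave 0.77 (SE 0.0694) and -0.80 (SE 0.0569) in NKO cells (64.3% passed, 43.1% called), or 0.22 and -1.36 on library totals. IL4 lowered Tbl1x by 0.41 and Tbl1xr1 by 0.36 there (31.6% passed, 12.1% called), and with IFNb 0 of 5 members passed the test (26.4% passed, 8.38% called).

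The sign of several KLA effects depends on the scaling. TMM factors over all libraries were 1.18 to 1.28 with vehicle and 0.674 to 0.91 with KLA alone, and dropping them moved the median gene of WT_KLA against WT_Veh from -0.14 to -0.87. On library totals the rise of Tbl1x in WT cells with KLA was 0.38 in place of 1.11, in Pgc1b flox cells 0.01 (edgeR adjusted p = 0.91) and in DMSO-treated cells 0.02 (edgeR adjusted p = 0.81), and the fall of Tbl1xr1 in WT cells was 1.79. Ncor1 in WT cells rose by 0.37 with KLA after TMM scaling (SE 0.061, edgeR adjusted p = 2.71e-07) and fell by 0.36 on library totals. These WT groups carry different date stamps. In the 4 KLA pairs of the other tables, Ncor1 differed by 0.0006 to 0.13 after TMM scaling and did not pass. Hdac3 in NKO cells rose by 0.22 with KLA (SE 0.081, edgeR adjusted p = 0.0101) and fell by 0.51 on library totals. That rise was 0.10 without NKO_Veh replicate 1 (edgeR adjusted p = 0.306) and did not pass without NKO_KLA replicate 1 (0.0713). Against the median of all genes, Tbl1x was higher and Tbl1xr1 lower on both scales.

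A ratio of 2 genes within a library needs no such scaling. The ratio of Tbl1xr1 to Tbl1x, in counts per length, was 1.19 and 1.22 in WT_Veh and 0.28 and 0.258 in WT_KLA. Over the 6 vehicle groups its mean ranged from 1.03 to 1.40, and over the 6 groups with KLA alone from 0.20 to 0.379, without overlap of any libraries. Poly I:C gave 0.22 and 0.228 in WT cells but 0.469 and 0.471 in NKO cells. IFNb left the ratio at 0.953 ± 0.016 in WT and 1.30 ± 0.022 in NKO cells, and IL4 at 1.23 ± 0.025 and 1.45 ± 0.074 (SD, n = 2 for each).

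**Figure D4:**
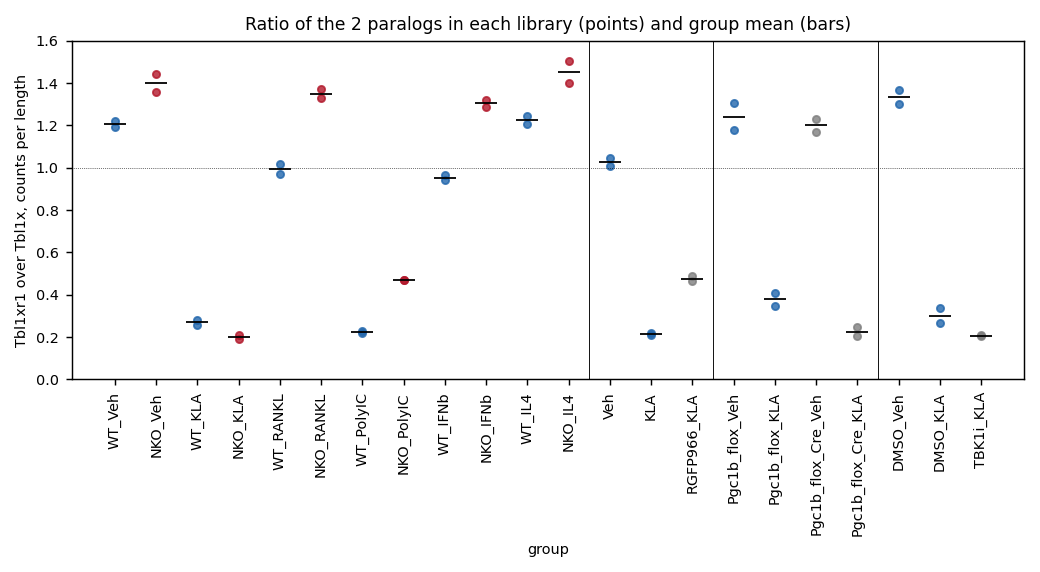
Ratio of Tbl1xr1 to Tbl1x in counts per transcript length in each library (points) with the group mean (bars), which no library scaling changes. Vehicle, IFNb, IL4 and RANKL groups lie between 0.953 and 1.45, and groups with KLA or poly I:C between 0.20 and 0.477.

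Among the members, the difference with the HDAC3 inhibitor was largest for Tbl1xr1. With KLA and RGFP966 together, Tbl1xr1 was 160 and 163 CPM, against 59.7 and 62.1 CPM with KLA alone and 140 and 139 CPM with vehicle. Against KLA alone it rose by 1.45 (SE 0.072, edgeR adjusted p = 1.86e-30), in a comparison where 51% of genes passed and 25.4% were called. Against vehicle it was higher by 0.22 (SE 0.063, edgeR adjusted p = 0.00125) after TMM scaling but -0.51 on library totals (75.4% of genes passed and 54.3% were called after TMM scaling). Tbl1x rose by a further 0.29 (SE 0.075, edgeR adjusted p = 0.000666), from 81.1 and 79.4 CPM to 96.4 and 94.2 CPM, and the ratio of the paralogs went from 0.214 ± 0.009 to 0.477 ± 0.014 (SD, n = 2). Gps2 fell by 0.37 (SE 0.102, edgeR adjusted p = 0.00173) and Ncor1 by 0.21 (SE 0.062, edgeR adjusted p = 0.00292). The Ncor1 value did not pass without KLA replicate 1 (edgeR adjusted p = 0.0572) or RGFP966_KLA replicate 2 (0.0588). Hdac3 itself, the target of the compound, differed by -0.02 (SE 0.1, edgeR adjusted p = 0.913).

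With the TBK1 inhibitor Tbl1xr1 went the other way. It was 61.5 and 57 CPM in DMSO_KLA and 43.4 and 38.4 CPM in TBK1i_KLA, the lowest of the 22 groups, a fall of 0.54 (SE 0.081, edgeR adjusted p = 1.03e-10) that was under 1.5-fold with both libraries and passed 1.5-fold without TBK1i_KLA replicate 1 (-0.63) or DMSO_KLA replicate 2 (-0.59). On library totals the fall was 0.17. Tbl1x was 51.5 and 60.1 CPM in DMSO_KLA and 58.1 and 53.3 CPM in TBK1i_KLA and overlapped, with a difference of -0.01 (SE 0.084, edgeR adjusted p = 0.964). The other 3 members differed by -0.03 to 0.10 and did not pass the test, and all 3 were higher with the inhibitor on library totals, by 0.34 to 0.47, where the median gene was higher by 0.38. In this comparison 57.9% of genes passed and 33.3% were called. Against DMSO_Veh, Tbl1xr1 was lower (-1.89, SE 0.0668) and Tbl1x higher by 0.80 (SE 0.0836), where 78% passed and 57.3% were called.

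Deletion of Pgc1b, the coactivator PGC1β, left all 5 members within -0.07 to 0.12 of their flox controls under vehicle, where 0.737% of genes passed an adjusted p of 0.05 (edgeR), 0.303% were called, and 0 of the 5 members passed. With KLA, Tbl1xr1 was 78.3 and 76.3 CPM in Pgc1b flox cells and 48.5 and 59.1 CPM in Pgc1b flox Cre cells. It fell by 0.54 (SE 0.097, edgeR adjusted p = 1.79e-05) where 42.5% of genes passed and 26.1% were called, and the deletion's effect with KLA differed from that with vehicle by -0.47 (SE 0.127, edgeR adjusted p = 0.00371, 31.9% passed, 22.8% called). The interaction was -0.31 without Pgc1b_flox_Cre_KLA replicate 1 (edgeR adjusted p = 0.089) and -0.24 on library totals (edgeR adjusted p = 0.13), and passed in neither. The other 4 members did not pass the test.

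Hdac3, the catalytic subunit, varied least. It was 40.1 and 42 CPM in WT_Veh, 35.2 and 42.4 CPM in NKO_Veh, 37.6 and 35 CPM in WT_KLA and 46.9 and 45.3 CPM in NKO_KLA. On this scale NKO_KLA was its highest group and lay above each library of the next group, whereas on library totals Hdac3 had 32.8 CPM there, below every vehicle group. In NKO against WT cells it rose with KLA by 0.38 (SE 0.096, edgeR adjusted p = 0.000582), under 1.5-fold, where 60.1% of genes passed. In the joint fit the rise over WT_KLA was 0.32 (SE 0.11), and 0.26 to 0.38 with 1 library left out. Against the other 3 KLA groups Hdac3 was higher by 0.27 to 0.56. The value did not pass against Pgc1b_flox_KLA without NKO_KLA replicate 1 (edgeR adjusted p = 0.0944), without Pgc1b_flox_KLA replicate 2 (0.0759) or on library totals (0.126), nor against KLA without KLA replicate 1 (0.0678). In the remaining 5 treatments it differed between genotypes by -0.09 to 0.05 and did not pass the test. With KLA in WT cells it fell by 0.24 (SE 0.095, edgeR adjusted p = 0.0195), and did not pass without WT_KLA replicate 2 (edgeR adjusted p = 0.166) or WT_Veh replicate 2 (0.0842), nor with DESeq2 (adjusted p = 0.154).

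Gps2 showed small changes. It was 32.5 and 30.3 CPM in WT_Veh and 33.5 and 32.2 CPM in NKO_Veh, overlapping, with a difference of 0.05 (SE 0.087, edgeR adjusted p = 0.775). In NKO cells it fell with RANKL by 0.49, with KLA by 0.29 (SE 0.093, edgeR adjusted p = 0.00398) and with poly I:C by 0.28 (SE 0.095, edgeR adjusted p = 0.00808). The last did not pass without NKO_PolyIC replicate 1 (edgeR adjusted p = 0.0931). With IL4 it was lower in NKO than in WT by 0.27 (SE 0.088, edgeR adjusted p = 0.0237), which did not pass without WT_IL4 replicate 1 (edgeR adjusted p = 0.275), NKO_IL4 replicate 1 (0.0708) or NKO_IL4 replicate 2 (0.157), or with DESeq2 (adjusted p = 0.0558). Its lowest group means on the joint scale were 21.5 CPM in Pgc1b_flox_Cre_KLA, 22.7 CPM in NKO_RANKL and 24.2 CPM in WT_RANKL.

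Around the complex, 56 genes were followed in 5 lists. Of 14 nuclear receptors that recruit NCoR and were tested, 5 rose and 1 fell in NKO under vehicle, with a median of 0.08 against -0.01 over all genes, of which 20.1% passed and 6.21% were called. On library totals 2 of the 14 were called higher, against 3 with TMM. Called higher with TMM were Nr1d1 by 2.12 (SE 0.125), Thra by 0.93 (SE 0.108) and Rarg by 0.63 (SE 0.079). Nr1d1 encodes the heme-binding repressor REV-ERBα, Thra a thyroid hormone receptor and Rarg a retinoic acid receptor. Nr1d1 and Thra overlap on opposite strands, so their reads may not be separable where counting ignored strand. None of the associated repressors (8 tested), complex regulators (9), coactivator partners (8) or subunits of other deacetylase complexes (16) was called under vehicle, and their medians lay between -0.07 and 0.15. With KLA, 40% of all genes were called between genotypes. There, 4 of 9 complex regulators were called lower in NKO, and 7 fell in all. Of all 13407 genes tested, 2547 were called lower and 3822 fell. The list median was -0.50 against 0.07 over all genes. NKO_KLA and WT_KLA also differ in date stamp and in Xist and Ddx3y pattern. Under vehicle 1 of the 9 fell.

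With KLA in WT cells, 74.3% of all genes passed and 57.8% were called. Of the 14 receptors tested, 8 were called lower and 2 higher (median -0.72, all genes -0.14), led by Nr1d1, which fell by 3.26 (SE 0.338) to low counts, and Rxra, the shared partner of many receptors, which fell by 3.13 (SE 0.132). Among the 8 associated repressors 5 were called higher and 1 lower (median 1.04), including Skil, a SKI-family corepressor, which rose by 2.73 (SE 0.065). Complex regulators were called higher in 7 of 9 (median 0.75), and coactivator partners were called higher in 4 of 8 and lower in 1 (median 0.58). Sap30, a subunit of the SIN3 complex, rose by 2.91 (SE 0.082) and was 1 of 3 called higher among the 16 subunits of other deacetylase complexes, of which 2 were called lower. On library totals the medians were -1.45 for receptors, 0.31 for associated repressors, 0.02 for complex regulators and -0.15 for coactivator partners, against -0.87 for all genes, and 2 of 9 complex regulators were called higher and 2 lower. Summed fibroblast markers were 1.07 CPM in WT_KLA and 48.7 CPM in WT_Veh, and their part in these differences was not tested.

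With RGFP966 added to KLA, Nr1d1 rose by 2.44 (SE 0.395) and Thra by 1.39 (SE 0.225), while Ppargc1b, which encodes PGC1β, fell by 2.49 (SE 0.209). Vdr, the vitamin D receptor, was called lower, but the inhibitor libraries had 0 and 1 counts of it and no fold is given. Beside 51% of all genes passing and 25.4% called, 6 of 14 receptors were called, 3 in each direction, and of the 16 subunits of other deacetylase complexes 9 fell and 2 rose. With the TBK1 inhibitor Ppargc1b fell by 2.55 (SE 0.252) and Sap30 by 2.24 (SE 0.074), and Vdr, at low counts, rose by 1.95 (SE 0.484) and Rarg by 1.59 (SE 0.076). Of 8 associated repressors 4 were called lower (median -0.61), where 33.3% of all genes were called. On library totals 2 of the 8 were called lower and 3 higher (median -0.25).

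Over the 12 group means of the NCoR table, the genes whose log2 CPM followed the paralogs most closely were Tal1 (Pearson r = 0.993), Ppp2r1a (0.969) and Piezo1 (0.963) for Tbl1x, and Thra (0.90), Fam78b (0.894) and Nr1d1 (0.89) for Tbl1xr1. Tal1 encodes a transcription factor of blood progenitors and Piezo1 a mechanosensitive ion channel. Vkorc1 (0.93) was closest to Hdac3 and Ccdc174 (0.735) to Ncor1. These r values describe 9793 genes over 12 groups that share libraries, depth and treatments. Between the paralogs themselves r was -0.14, and between Ncor1 and Tbl1xr1 it was -0.74. Both genotypes are among the 12 groups and Ncor1 is the deleted gene, so the last value includes the genotype differences given above.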

How the data were processed

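RNA-seq of mouse BMDMs was analysed from 4 tables of raw counts as deposited. Per the file headers and the study's methods, the authors aligned reads to mm10 with STAR and counted them over RefSeq exons with HOMER, without normalization and with 1 transcript per gene. The headers name no strand option, although the methods describe strand-specific counting. All 44 columns were assigned by their labels, and 0 were left over. The labels do not say whether replicates came from separate mice, so p-values measure only the spread between these libraries.

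Each table was fitted separately with all its groups in edgeR 4.0.16 (R 4.3.3), after filterByExpr and with TMM scaling over gene totals. Tests were 2-sided quasi-likelihood tests with Benjamini-Hochberg adjustment over 13407, 12196, 12205 and 12332 genes (NCoR, RGFP966, Pgc1b and TBK1i tables). A gene rose or fell at an adjusted p below 0.05 and was called if it also changed over 1.5-fold. SEs were derived from the F statistic. NKO_KLA and 4 KLA groups were also fitted together. Common biological coefficients of variation were 0.0421, 0.0433, 0.0665 and 0.031. Every pair of replicates differed by more than sampling noise. Levels are CPM with TMM factors over 23368 transcripts listed in all tables, or TPM computed from counts and transcript length. The fit was tested on simulated data. With 2 libraries a group, no exact permutation test of 1 gene can reach 0.05.

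The members and lists were chosen with earlier results of these data known. Beyond the members, named genes were the 2 highest and 2 lowest called genes of the 5 lists in NKO against WT under vehicle, KLA in WT and each inhibitor (fewer where fewer were called), and the 3 genes with the highest Pearson r to each member among those averaging 5 CPM or more, of which the text names some. Alternatives were size factors and the Wald test of DESeq2 1.42.0, other filters, only the compared groups, a replicate block and each library left out. Library totals without TMM, the paralog ratio and the inhibitors against vehicle were added after seeing the data.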

Additional observations from a re-analysis of the deposited data

Results flagged for a closer look

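The difference between the genotype effect with a ligand and that with vehicle passed an adjusted p of 0.05 and 1.5-fold for 2 members (edgeR's quasi-likelihood test). For Tbl1x, NKO exceeded WT by 0.91 (log2) more with KLA than with vehicle. Under KLA the 2 genotypes also differ in date stamp and in Xist and Ddx3y pattern, and Tbl1x is X-linked. These cannot be told apart from genotype there. For Tbl1xr1, NKO exceeded WT by 0.64 more with poly I:C than with vehicle. Groups of 2 libraries are too small for a check for single outlying libraries.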

How the results depend on the processing

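Of 170 member results each, 6 no longer had an adjusted p below 0.05 with DESeq2 and 4 with DESeq2's size factors (3 gained one), 2 with a mean of 5 CPM or more (4 gained), 3 with no filter (1 gained), and 1 of 120 with only the compared groups fitted (3 gained). That fit was not run for interactions or across tables. Of 3040 member results with 1 library left out, 53 lost and 26 gained an adjusted p below 0.05. Replicate numbers did not pair the samples, since correlations of same-numbered deviations were -0.06 to 0.059, and a replicate block left 170 of 170 on the same side, with Tbl1xr1 in NKO_Veh against WT_Veh at 0.64.

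On library totals without TMM, 3 values reversed: Tbl1xr1 in RGFP966_KLA against Veh (-0.51), Hdac3 in NKO_KLA against NKO_Veh (-0.51) and Ncor1 in WT_KLA against WT_Veh (-0.36). There, ligands in WT cells gave 0 members called higher (2 with TMM) and 8 lower (4), and in NKO cells 1 higher (2) and 8 lower (4). KLA in the other tables gave 0 higher (4) and 14 lower (4). Of the pathway genes, WT_KLA against WT_Veh gave 9 higher (21) and 23 lower (12), and TBK1i_KLA against DMSO_KLA 18 higher (5) and 7 lower (11).

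Without the 1.5-fold threshold, members other than Ncor1 passed higher in NKO 12 times (7 with it) and lower 1 time (0). Ligands in WT gave 4 higher (2) and 10 lower (4), and in NKO 9 lower (4). Interactions gave 5 higher (2) and 2 lower (0), inhibitors 2 higher (1) and 3 lower (0), and Pgc1b deletion 2 lower (0). Leaving out 1 library, the inhibitor count called lower ranged from 0 to 1 (1 without DMSO_KLA replicate 2 or TBK1i_KLA replicate 1) and the Pgc1b count from 0 to 2 (2 without Pgc1b_flox_Cre_KLA replicate 2).

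WT_Veh levels on library totals and with TMM within the table were 198 and 166 CPM for Ncor1, 51.4 and 43 for Hdac3, 39.4 and 32.9 for Tbl1x, and 169 and 141 for Tbl1xr1. Gps2 had 39.3 CPM on library totals. With 2 libraries a group, a difference that missed the threshold is not shown to be absent.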
